A study of Mus musculus with 23 samples.

Results

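Oxt, Avp, Trh, Crh, Ghrh, Gal, Tac2 and Gnrh1 encode the precursors of 8 peptides that neurons of the hypothalamus use as hormones, releasing hormones or signals to other neuroendocrine cells. Their rows were taken by gene symbol, and the 8 genes were chosen with earlier results of these data known. They were followed on all 23 one-color microarrays of the series, which sampled the hypothalamus (HT), the striatum (ST) and the frontal cortex (FC). These 8 genes occupy 9 of the 31395 rows of the expression table, because Gnrh1 has 2 rows; no row was lost to the filter on dim probes. The arrays came from 8 female C57BL/6 mice, 5 weeks old at the start, which received 8 weeks of diet followed by an 11-day battery of behavioral tests. Mice L52, L54, L56 and L58 were given standard chow (SC), with limited access to the chocolate mixture during the tests. Mice O52, O54, O56 and O58 had a free choice between chow and the chocolate mixture (CM). Each mouse gave 1 array per region, without a frontal cortex array for O52 here, so that groups held 4 arrays and CM FC held 3. No allele or transgene was involved, and each array is 1 region of 1 animal.

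Oxytocin and vasopressin are made by large neurons of the paraventricular and supraoptic nuclei, which send their axons to the posterior pituitary. The precursors of thyrotropin-releasing hormone (Trh), corticotropin-releasing hormone (Crh), growth hormone-releasing hormone (Ghrh) and gonadotropin-releasing hormone (Gnrh1) give rise to peptides that reach the anterior pituitary through the portal blood and set the release of its hormones. Galanin (Gal) and neurokinin B (Tac2) act mainly inside the brain, Tac2 in the arcuate neurons that pace gonadotropin-releasing hormone. Several of the 8 are also made outside the hypothalamus. Crh is made in cortical interneurons and Trh in other forebrain areas. The cells of the hypothalamus that make them sit in small nuclei, so that their share in a dissected piece depends on where it was cut.

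Each row is the signal of a single 60-base probe, shown here because the probe decides what part of the transcript was measured. All positions are in mouse build mm9, as annotated on the array. Oxt and Avp are neighbours on chromosome 2 with their 3′ ends facing each other, and 3827 bases separated the 2 probes. The Avp probe covered 266 bases of the genome for 60 bases of RNA, and therefore crossed an exon junction. It lies in the coding part, in the neurophysin stretch of the vasopressin precursor. Binding of Oxt RNA to it was not tested. The Gal probe lies in the coding part as well. Both are given whole.
Avp (NM_009732), chr2:130406552-130406817, minus strand: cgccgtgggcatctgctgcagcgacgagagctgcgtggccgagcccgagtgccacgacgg
Gal (NM_010253), chr19:3411143-3411202, minus strand: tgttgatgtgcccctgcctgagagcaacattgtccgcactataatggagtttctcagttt
Of the other probes only the end is given. In Trh, Ghrh and Tac2 these hold the polyadenylation signal, in capitals, so that the probes read the 3′ end of the transcript.
Trh (NM_009426), chr6:92192061-92192120, minus strand: tgttaatctcaatgacAATAAAatatatcc
Ghrh (NM_010285), chr2:157155249-157155308, minus strand: cttttccgtcctctgtaaatacAATAAAac
Tac2 (NM_001199971), chr10:127168764-127168823, plus strand: ttcgtcaacAATAAAgggtttttacaaagg
Oxt (NM_011025), chr2:130402665-130402724, plus strand: gcgcttccttcgttccccatggccactgcc
Crh (NM_205769), chr3:19593482-19593541, minus strand: aatcaactttttcttgtaaatgtttcagta
The 2 Gnrh1 probes lay apart on chromosome 14. The probe annotated to an Ensembl transcript ends in the start of the coding part, whose first 9 bases are in capitals, and the RefSeq probe maps upstream of it.
Gnrh1 start-codon probe (ENSMUST00000015956), chr14:68364362-68364421, plus strand: ttagagtggacATGATCCTCaaactgatgg
Gnrh1 upstream probe (NM_008145), chr14:68363316-68363375, plus strand: gaagctcgagatccctttgactttcacatc

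All values are log2 of the background-corrected, quantile-normalized spot signal, and differences between groups are log2 differences from 1 linear model (limma) fitted to the whole table, with their SE and Benjamini-Hochberg adjusted p over 31395 rows. Precision is limited by how few arrays each group holds. The HT arrays are hypothalamus in the study's protocol, whereas their tissue label reads thalamic region. Markers of both structures were present. Of 11 hypothalamus markers 10 were in the table. On SC, 3 of these were higher in HT than in FC at 2-fold and adjusted p 0.01 (limma), where 4.38% of all rows were. The other 7 did not pass, and the list median was 1.49. The lateral hypothalamic peptides Hcrt and Pmch reached 16.73 and 15.90. Of 12 thalamus markers, 11 were higher in HT than in FC on SC, by a median of 2.79 over the list, and 1 was lower. The mean of the hypothalamus list ranged from 7.64 to 9.72 over the CM HT arrays and from 7.65 to 10.22 over the SC HT arrays, against 5.74 to 6.49 in SC FC. In bulk tissue, fewer cells of a type and less RNA per cell cannot be told apart.

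Some arrays stood apart before any comparison. The SC ST array of mouse L52 held a hypothalamus marker mean of 8.52, where the other 3 SC ST arrays lay between 6.01 and 6.65, and its Hcrt of 15.45 compared with 7.67 to 7.83 in those 3. The SC HT array of L54 had the lowest marker mean of its group at 7.65, with Hcrt at 13.24, and a striatum marker mean of 10.83 against 9.33 to 9.58 in the other SC HT arrays. In the SC FC array of L54, Dlx1 and Dlx2, transcription factors of forebrain interneurons, reached 11.52 and 11.03, whereas the other SC FC arrays did not exceed 9.12 and 8.97. Arrays of CM mouse O58 also stood apart. Its HT array had a hypothalamus marker mean of 7.64, and a striatum marker mean of 9.99 against 9.21 to 9.27 in the other CM HT arrays. Its ST array had a choroid plexus marker mean of 12.85, against 7.82 to 8.85 in the other CM ST arrays. Arrays were hybridized on 3 slides. All CM FC arrays shared slide 3, all CM ST arrays slide 1 and all CM HT arrays slide 2. Each SC group was spread over 2 or more slides. In HT and ST slide and diet were therefore partly confounded. In FC no slide held both diets, so that diet and slide cannot be separated there. The comparison of the FC diet difference with that in HT shares this limit. Values with slide as a block in the model are given beside the region results. For diet in FC that block rests on slide differences seen in other groups.

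**Figure D1:**
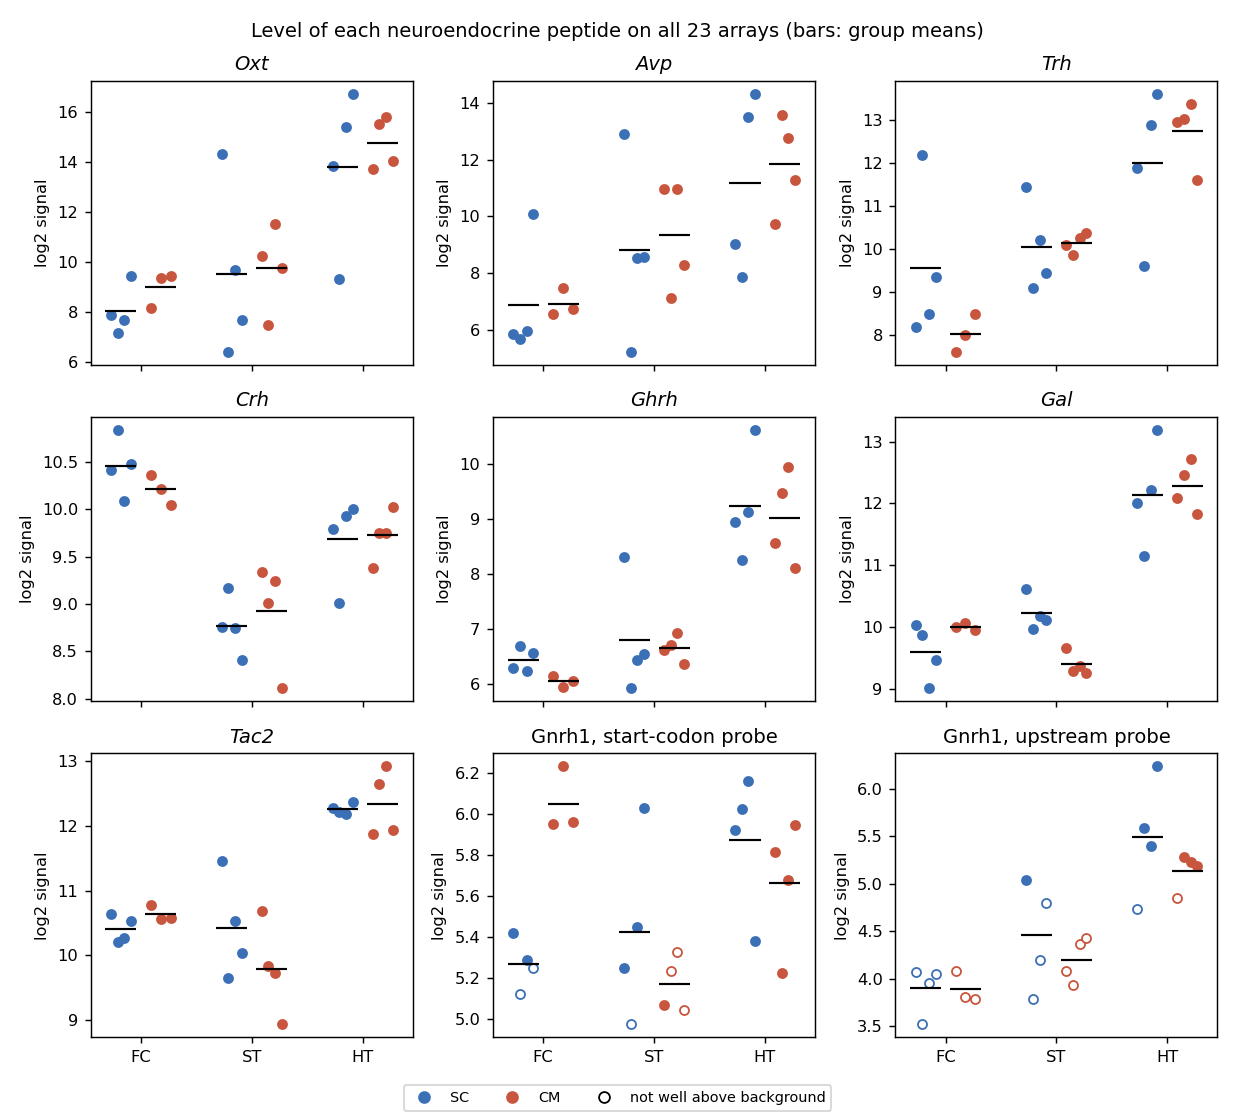
Log2 signal of the 9 probes on 23 arrays, by region (x axis) and diet (color), with group means as bars and open circles for spots not well above background. The Oxt points of HT span 9.29 to 16.72, and 1 SC ST array lies at 14.32 among ST arrays that otherwise stay at or below 11.50.

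The first question was whether the 8 peptides mark the hypothalamic samples. Counts follow for each of the 4 comparisons with FC and ST, with the share of all rows beside them. On SC, 5 of 9 rows passed 2-fold and an adjusted p of 0.01 with the higher level in HT than in FC (Oxt, Ghrh, Gal, Tac2 and the Gnrh1 upstream probe), where 4.38% of all rows did. On CM, 7 of 9 rows were higher in HT than in FC, with Avp and Trh added, against 5.01% of all rows. Against ST, 4 rows passed on SC (Ghrh, Gal, Tac2 and the Gnrh1 upstream probe; background 1.95%) and 5 on CM (Oxt, Trh, Ghrh, Gal and Tac2; background 4.37%). In the model with slide as a block, 3 rows passed against FC on SC (Ghrh, Gal and the Gnrh1 upstream probe), where 5.10% of all rows did in either direction, and 0 of 9 on CM, where 5.33% did; on CM all HT arrays were on slide 2 and all FC arrays on slide 3. Against ST the block left 2 on SC (Ghrh and Gal; 4.46% of all rows) and 4 on CM (Oxt, Ghrh, Gal and Tac2; 5.99%). The median difference of the 9 rows between HT and FC on SC was 2.54, and that of all rows 0.02. The 2 rows that passed in none of these comparisons were Crh and the Gnrh1 start-codon probe.

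**Figure D2:**
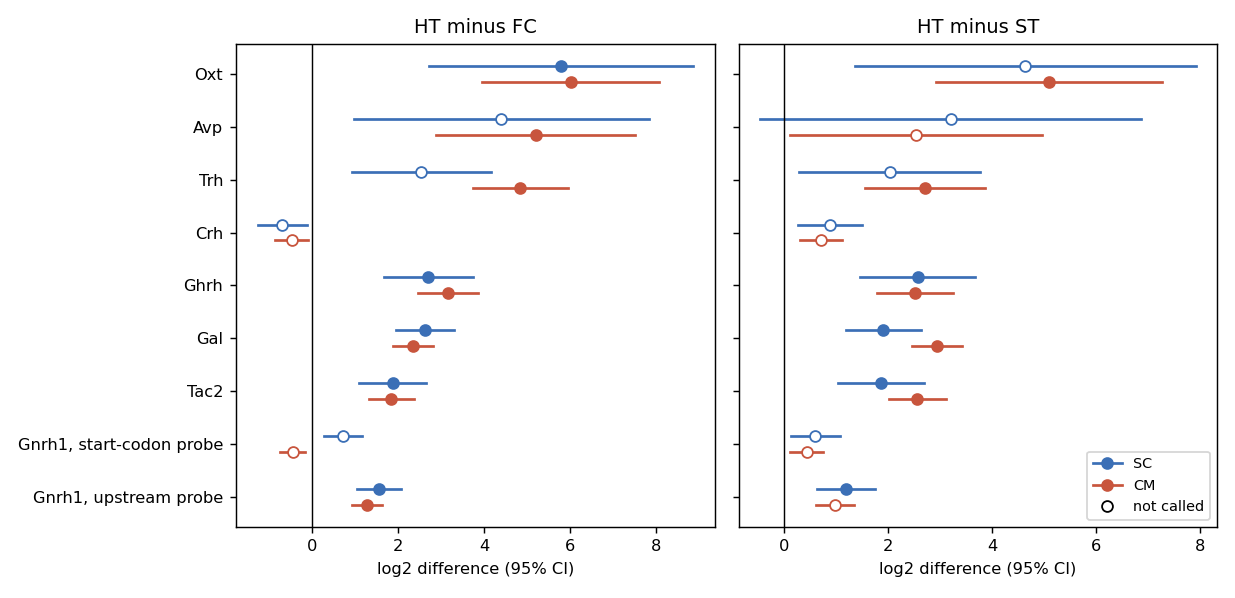
Differences of HT from FC (left) and from ST (right) on SC and CM, as log2 with 95% confidence intervals; filled points passed 2-fold and adjusted p 0.01. Gal, Ghrh and Tac2 are filled in all 4 comparisons, the intervals of Oxt and Avp are the widest, and Crh lies below 0 against FC and above 0 against ST.

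Oxt, the oxytocin precursor, had the largest differences between HT and FC of the 9 rows on both diets, and its HT arrays varied widely. In SC HT it was 13.84 in L52, 9.29 in L54, 15.38 in L56 and 16.72 in L58. In CM HT it was 13.73, 15.52, 15.80 and 14.05 in O52 to O58. All but the array of L54 were therefore far above FC, where SC arrays held 7.87, 7.17, 7.65 and 9.43 and CM arrays 8.14, 9.34 and 9.43. SC ST arrays read 14.32, 6.38, 9.67 and 7.69 in L52 to L58, so that L52 exceeded several HT arrays. CM ST arrays read 10.24, 7.46, 11.50 and 9.74. HT exceeded FC by 5.78 ± 1.47 (SE) on SC (adjusted p = 0.00361) and by 6.01 ± 0.99 on CM (adjusted p = 3.11e-05). Against ST the difference was 5.08 ± 1.04 on CM (adjusted p = 0.000336), while on SC a difference of 4.64 ± 1.57 did not pass (adjusted p = 0.0397). Without the SC ST array of L52 and the SC HT array of L54, the latter became 7.42 ± 1.25 (adjusted p = 0.00034) and the HT to FC difference on SC 7.22 ± 1.09 (adjusted p = 5.49e-05). Both arrays were picked after their values were seen. They held the highest Oxt of SC ST and the lowest of SC HT, so that leaving them out widens these differences. Against FC on SC the Oxt call was lost when the SC FC array of L54, that of L56, the SC HT array of L56 or that of L58 was left out alone, and without the SC FC arrays of L54 and L58 together it was 5.88 ± 2.13 (adjusted p = 0.0570). With slide as a block, Oxt was 10.10 ± 2.50 higher in HT than in FC on SC (adjusted p = 0.0108) and 3.39 ± 2.28 on CM (adjusted p = 0.382). FC and ST did not differ beyond their spread, by 1.15 ± 1.73 on SC and 0.93 ± 1.06 on CM.

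Avp, the vasopressin precursor, had a similar profile with less separation. SC HT arrays read 9.02, 7.87, 13.50 and 14.31, and CM HT arrays 9.73, 13.57, 12.77 and 11.29, in the order of the mouse numbers. The SC HT arrays of L52 and L54 thus fell below the SC ST array of L52 at 12.90 and the CM ST arrays of O52 and O56 at 10.97 and 10.96. The remaining ST arrays lay between 5.22 and 8.57. In FC, 6 of 7 arrays lay between 5.69 and 7.47, and that of L58 reached 10.07. Its Oxt, at 9.43, was level with the highest CM FC array, and its hypothalamus marker mean of 6.49 was the highest of SC FC. Avp passed against FC on CM, by 5.19 ± 1.11 (adjusted p = 0.000473), but not on SC, by 4.39 ± 1.64 (adjusted p = 0.0368). The slide block left the CM difference at 3.62 ± 2.62 (adjusted p = 0.427). Against ST neither diet passed, with 3.20 ± 1.75 on SC (adjusted p = 0.218) and 2.54 ± 1.16 on CM (adjusted p = 0.0703). When the arrays of L52 (SC ST) and L54 (SC HT) were left out, Avp passed against FC on SC as well, at 5.39 ± 1.54 (adjusted p = 0.00981). Here too they held the highest SC ST and the lowest SC HT value, and were picked after these were seen.

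Trh, the precursor of thyrotropin-releasing hormone, which drives thyrotropin release, read 11.87, 9.60, 12.87 and 13.60 in SC HT and 12.95, 13.03, 13.35 and 11.60 in CM HT. Again the array of L54 was the lowest. ST arrays held intermediate levels, of 11.44, 9.10, 10.21 and 9.44 on SC and 9.87 to 10.37 on CM. In FC, CM arrays read 7.61, 8.00 and 8.48 and SC arrays 8.19, 12.17, 8.50 and 9.36. The single high value was the L54 array with high Dlx1 and Dlx2; the part of these cells in it was not tested. HT exceeded FC by 4.84 ± 0.53 on CM (adjusted p = 1.48e-07) and by 2.54 ± 0.78 on SC, which did not pass (adjusted p = 0.0128). It exceeded ST by 2.71 ± 0.55 on CM (adjusted p = 0.000317). With slide as a block these 2 CM differences were 3.64 ± 1.31 (adjusted p = 0.0685) and 4.12 ± 1.10 (adjusted p = 0.0123). Trh was also higher in ST than in FC on CM, by 2.13 ± 0.56 (adjusted p = 0.00282). That difference was -0.49 ± 1.54 with the slide block (adjusted p = 0.925).

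Ghrh, the arcuate releasing hormone for growth hormone, passed in all 4 comparisons of HT. SC HT arrays read 8.95, 8.25, 9.13 and 10.61 and CM HT arrays 8.56, 9.47, 9.95 and 8.10. FC arrays lay between 5.94 and 6.68 and ST arrays between 5.91 and 6.92, except the SC ST array of L52 at 8.31. No HT array fell within the FC range on either diet. HT was 2.69 ± 0.50 above FC on SC (adjusted p = 0.000241) and 3.16 ± 0.33 on CM (adjusted p = 1.06e-07), and 2.56 ± 0.53 (adjusted p = 0.00137) and 2.51 ± 0.35 (adjusted p = 4.89e-06) above ST. The slide block kept the call in 3 of the 4, and left HT to FC on CM at 2.22 ± 0.75 (adjusted p = 0.0516).

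Gal and Tac2 also passed in all 4 comparisons of HT. Galanin, which is made in several hypothalamic nuclei and in magnocellular neurons together with vasopressin, read 12.01, 11.15, 12.21 and 13.19 in SC HT and 12.08, 12.46, 12.72 and 11.83 in CM HT. All 8 exceeded the highest other array, the SC ST array of L52 at 10.61. Its differences were 2.63 ± 0.32 from FC (adjusted p = 3.73e-06) and 1.90 ± 0.35 from ST (adjusted p = 0.000416) on SC, and 2.34 ± 0.22 (adjusted p = 1.82e-08) and 2.93 ± 0.23 (adjusted p = 1.84e-09) on CM. Tac2, the neurokinin B precursor, read between 12.19 and 12.38 in SC HT and 11.87, 12.64, 12.92 and 11.94 in CM HT. The SC HT arrays differed by a range of only 0.19, where Oxt in the same RNA ranged over 7.42. FC lay between 10.21 and 10.78 and ST between 8.93 and 11.46, the highest again in L52. HT was 1.87 ± 0.37 (adjusted p = 0.000493) above FC and 1.86 ± 0.40 (adjusted p = 0.00180) above ST on SC. On CM these were 1.83 ± 0.25 (adjusted p = 3.31e-06) and 2.56 ± 0.26 (adjusted p = 9.27e-08). With the slide block, Tac2 passed only against ST on CM; it was at 2.45 ± 0.71 (adjusted p = 0.0268) against FC and 2.07 ± 0.59 (adjusted p = 0.0244) against ST on SC, and at 1.53 ± 0.65 (adjusted p = 0.126) against FC on CM. Gal passed against ST on both diets and against FC on SC, and was at 1.55 ± 0.51 (adjusted p = 0.0455) against FC on CM.

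Crh, the releasing hormone of the stress axis, ran the other way. FC arrays read 10.42, 10.84, 10.09 and 10.48 on SC and 10.36, 10.22 and 10.05 on CM. HT arrays read 9.80, 9.01 and 9.92 in L52, L54 and L56 and 10 in L58 on SC, and 9.38, 9.75, 9.75 and 10.02 on CM, all below every FC array of their diet. The ST group means were the lowest, with arrays at 8.76, 9.17, 8.74 and 8.41 on SC and 9.33, 9.02, 9.24 and 8.11 on CM. The SC HT array of L54 lay within the SC ST range. The order FC, HT, ST held for the group means on both diets, but neighbours in it did not pass 2-fold and adjusted p 0.01. HT was lower than FC by -0.70 ± 0.28 on SC (adjusted p = 0.0468) and -0.48 ± 0.19 on CM (adjusted p = 0.0328), and higher than ST by 0.88 ± 0.30 (adjusted p = 0.0373) and 0.70 ± 0.20 (adjusted p = 0.00464). The ends of the order did differ. Crh was lower in ST than in FC by -1.58 ± 0.32 on SC (adjusted p = 0.00389) and -1.18 ± 0.20 on CM (adjusted p = 4.09e-05). It was the single member row called between ST and FC on SC, where 2.09% of all rows were, and 1 of 2 on CM, where 9.45% were. Without the SC FC arrays of L54 and L58 the SC difference was -1.45 ± 0.43 (adjusted p = 0.0642). Leaving out the SC FC array of L54, that of L58 or the SC ST array of L56 alone also ended that call, as did leaving out mouse L52, L56 or L58, fitting only the ST and FC arrays, or fitting each mouse as a fixed effect. With slide as a block the 2 differences were -1.56 ± 0.35 (adjusted p = 0.00809) and -1.52 ± 0.57 (adjusted p = 0.156).

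The 2 Gnrh1 probes disagreed, and both were dim. The neurons that make gonadotropin-releasing hormone are few and scattered through the preoptic area. The upstream probe was well above background in 3 of 4 SC HT and 3 of 4 CM HT arrays, in 1 of 4 SC ST arrays (L52) and in no other array. Its values were 4.74, 5.59, 5.40 and 6.24 in SC HT and 4.85, 5.29, 5.23 and 5.19 in CM HT, and 3.52 to 4.08 in FC. FC values were therefore raised, if lower, to the lowest signal well above background on their array. Computed so, HT was 2.32-fold higher than FC on SC and 2.16-fold higher on CM. The fitted adjusted p in limma were 5.73e-05 and 1.69e-06. These folds are not strict lower limits. The CM HT array of O52 had this probe at 4.85, not well above background, although its lowest signal well above background was 3.63. Against ST on CM the same method gave 1.75-fold, from an HT mean of 5.14 and a raised ST mean of 4.33. The measured ST mean was 4.20. On SC, with L52 among the ST arrays, the difference was 1.19 ± 0.26 (adjusted p = 0.00250). Under the slide block the upstream probe passed against FC on SC, at 1.90 ± 0.46 (adjusted p = 0.00879), but not against ST on SC, at 1.22 ± 0.38 (adjusted p = 0.0371), or against FC on CM, at 1.07 ± 0.41 (adjusted p = 0.0916). The start-codon probe, by contrast, ranged from 5.38 to 6.16 in SC HT and from 5.22 to 5.95 in CM HT, and from 5.95 to 6.23 in CM FC. Its difference between HT and FC was 0.71 ± 0.21 on SC (adjusted p = 0.0104) and -0.46 ± 0.14 on CM (adjusted p = 0.00897). Over the 8 HT arrays the 2 probes had r = -0.34 (exact permutation p = 0.409) and rho = -0.02 (exact permutation p = 0.977).

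The diet question was whether the peptides differed between CM and SC mice within a region. In HT 0 of 9 rows passed 1.5-fold and an adjusted p of 0.05 in limma, where 0.178% of all rows did, and 0 passed an adjusted p of 0.05 without the fold (background 0.430%). At an unadjusted p of 0.05, 1 row did, the Gnrh1 start-codon probe, against 13.2% of all rows. Oxt was 1.13 ± 1.12 higher on CM (adjusted p = 0.729, 95% interval -1.20 to 3.46), with the SC arrays on both sides of the CM arrays. Avp differed by 0.71 ± 1.25 (interval -1.89 to 3.32) and Trh by 0.81 ± 0.59 (interval -0.42 to 2.05). For these 3 genes the upper limits lie above a 4-fold increase. The intervals were narrower for Crh, at 0.04 (-0.40 to 0.48), for Gal, at 0.28 (-0.24 to 0.79), for Tac2, at 0.22 (-0.38 to 0.81), and for Ghrh, at 0.08 (-0.71 to 0.87). The Gnrh1 probes were at -0.35 (-0.69 to -0.02) and -0.28 (-0.67 to 0.11). Without the SC HT array of L54 and the SC ST array of L52, the Oxt difference was -0.29 ± 0.89, that of Avp -0.28 ± 1.26 and that of Trh 0.04 ± 0.55. This took a low array out of SC HT only. The CM HT array of O58, with a hypothalamus marker mean of 7.64 against 7.65 in L54, was kept. With slide as a block the differences of Oxt, Avp and Trh were -0.89 ± 2.20, -0.36 ± 2.53 and -0.05 ± 1.26. Within slide 2, the only slide with both diets in HT, the mean of the 4 CM arrays differed from the single SC array by -1.94 in Oxt, -2.47 in Avp, -1.59 in Ghrh and -0.03 in Tac2. That SC array was L58, the highest of its group in Oxt, Avp and Ghrh.

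**Figure D3:**
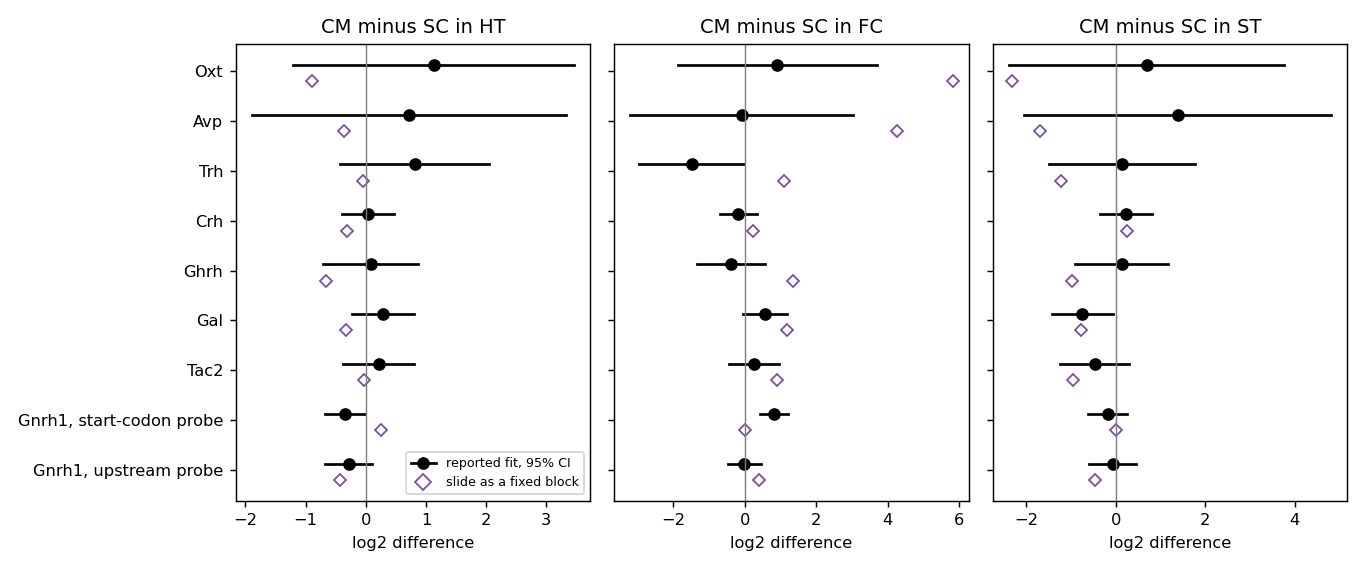
Differences between CM and SC in HT, FC and ST, as log2 with 95% confidence intervals (black), and the same with slide as a fixed block (open diamonds). In HT most diamonds lie on the other side of 0 from the points, Oxt at -0.89 against 1.13, and no interval of Oxt, Avp or Ghrh excludes 0 in any region.

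In FC 0 of 9 rows passed the 2-fold and adjusted p 0.01 threshold (background 2.94%), and 1 passed an adjusted p of 0.05 (background 28.6%). It was the Gnrh1 start-codon probe, higher on CM by 0.82 ± 0.19 (adjusted p = 0.00366), with SC values of 5.42, 5.12, 5.29 and 5.25 below CM values of 5.95, 6.23 and 5.96. Of the 4 SC arrays 2 were not well above background there. With slide as a block the difference was 0 ± 0.34 (adjusted p = 1). All CM FC arrays were on slide 3 and no SC FC array was, so that slide and diet cannot be separated within FC. At an unadjusted p of 0.05, 2 rows passed in FC (background 40%), the other being Trh at -1.49 ± 0.71 (adjusted p = 0.122), which included the L54 array. In ST 0 of 9 rows passed either the study's threshold (background 0.602%) or an adjusted p of 0.05 (background 9.82%). Gal had the only unadjusted p under 0.05 of the 9 rows there (background 25.5%). Its SC arrays at 10.61, 9.97, 10.18 and 10.12 lay above its CM arrays at 9.67, 9.30, 9.37 and 9.26, a difference of -0.75 ± 0.33 (adjusted p = 0.148). Between HT and FC the diet difference itself differed in 1 of 9 rows (background 20%), the Gnrh1 start-codon probe again at -1.17 ± 0.25 (adjusted p = 0.00301). With the slide block it was 0.26 ± 0.57 (adjusted p = 1). Without the SC FC arrays of L54 and L58 it was -1.06 ± 0.34 (adjusted p = 0.108). Between HT and ST 0 of 9 rows differed, and 0% of all rows did.

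The spread between HT arrays of the same diet varied widely among the 9 rows. After subtracting the diet means, Avp had the 2nd and Oxt the 3rd highest SD of 31395 rows over the 8 HT arrays, at 2.56 and 2.40, where the median row had 0.16. Trh ranked 29th (SD 1.35), Ghrh 150th (0.92) and Gal 443rd (0.65). The Gnrh1 upstream probe ranked 1293rd (0.46), Crh and Tac2, with SDs of 0.37, 2398th and 2429th, and the Gnrh1 start-codon probe 3432nd (0.33). In linear terms the highest HT array exceeded the lowest 172-fold in Oxt, 86.8-fold in Avp, 15.9-fold in Trh, 5.72-fold in Ghrh and 4.10-fold in Gal, but 2.02-fold in Crh and 2.07-fold in Tac2. In ST, where the array of L52 stood apart, Oxt and Avp ranked 3rd and 4th.

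Across mice, several of the peptides varied together. Of 28 pairs of genes over the 8 HT arrays, with Gnrh1 taken by its brighter start-codon probe, 21 had a positive r and 7 passed an adjusted p of 0.05 (Benjamini-Hochberg over the pairs). Oxt and Avp had r = 0.88 (exact permutation p = 0.00032, adjusted p = 0.00301) and rho = 0.90 (exact permutation p = 0.00456). Oxt and Gal reached r = 0.93 (exact permutation p = 0.00027, adjusted p = 0.00301) and rho = 0.90 (exact permutation p = 0.00456), Trh and Gal 0.92 (adjusted p = 0.00139), Ghrh and Gal 0.92 (adjusted p = 0.00625), and Oxt and Trh 0.94 (adjusted p = 0.0133). The other 2 pairs were Avp with Gal, at 0.84, and Avp with Trh, at 0.80. Each of the 7 pairs that involve the start-codon probe was negative, from -0.68 to -0.23, and none of them passed. The dimmer upstream probe of Gnrh1 was not used in these pairs. Subtracting the diet means changed r by little, giving 0.88 for Oxt and Avp and 0.95 for Ghrh and Gal. Without the 2 arrays farthest from the median of the first gene, r was 0.92 for Oxt and Avp, 0.86 for Oxt and Gal, 0.91 for Ghrh and Gal and 0.69 for Oxt and Trh, but with 6 arrays 0 of 28 pairs passed the adjustment. Leaving out the SC HT array of L58 or that of L54 left 3 and 4 pairs, and leaving out the CM HT array of O58 gave 12. With slide effects subtracted 4 pairs were left (Oxt with Trh and with Gal, Trh with Gal and Ghrh with Gal), and Oxt and Avp had r = 0.82 (adjusted p = 0.0736). Within slide 2, over 5 arrays, r was 0.95 for Oxt and Avp and 0.99 for Ghrh and Gal, but 0.72 for Oxt and Trh and 0.52 for Avp and Trh.

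**Figure D4:**
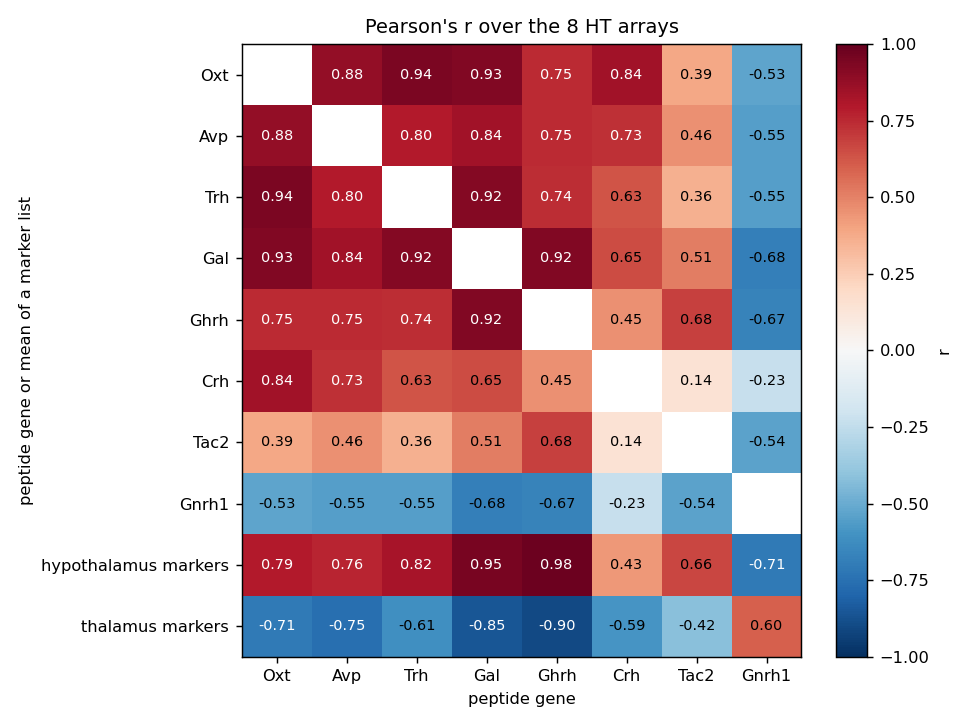
Pearson's r over the 8 HT arrays between the peptide genes (columns) and the same genes or the mean of the hypothalamus and thalamus marker lists (rows). Oxt, Avp, Trh, Gal and Ghrh form a block of r between 0.74 and 0.94, and each of these 5 is negative with the thalamus markers.

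Several of the peptides varied with the hypothalamus markers of the same arrays. The mean of the 10 hypothalamus markers, none of them one of the 8 peptides, had r = 0.98 with Ghrh (exact permutation p = 7e-05, adjusted p = 0.00149 over 24 relations with 3 marker lists) and rho = 0.98 (exact permutation p = 0.0004). For Gal r was 0.95 (adjusted p = 0.00149), for Trh 0.82 (adjusted p = 0.0351) and for Oxt 0.79 (adjusted p = 0.0363). Avp, at 0.76 (adjusted p = 0.0919), Tac2, at 0.66, Crh, at 0.43, and the Gnrh1 start-codon probe, at -0.71 (adjusted p = 0.121), did not pass. The Gnrh1 upstream probe had the other sign, at r = 0.47 (exact permutation p = 0.245) and rho = 0.43. Its r was -0.20 without the 2 arrays farthest from the median marker mean. Without the 2 arrays farthest from the median marker mean, r was 0.96 for Ghrh, 0.87 for Gal, 0.81 for Trh and 0.72 for Oxt. With the thalamus markers the relation was inverse, at r = -0.90 for Ghrh (adjusted p = 0.00893), -0.85 for Gal (adjusted p = 0.0351) and -0.75 for Avp (adjusted p = 0.0487), while Oxt, at -0.71 (adjusted p = 0.170), and Trh, at -0.61 (adjusted p = 0.183), did not pass. By rank Oxt and Trh did pass, at rho = -0.95 (exact permutation, adjusted p = 0.00685) and -0.83 (adjusted p = 0.0410). With the striatum markers none passed, the lowest r being -0.89 for Trh (adjusted p = 0.0509) and -0.81 for Oxt (adjusted p = 0.122); both were positive, at 0.24 and 0.60, without the 2 arrays farthest from the median. These relations were chosen after the marker values had been seen. Single markers differed between the mice as well. In the SC HT array of L58, which was highest in Oxt, Avp, Trh, Ghrh and Gal, the arcuate genes Agrp, Pomc and Kiss1 reached 10.89, 12.80 and 9.55, against at most 6.84, 9.57 and 6.02 in the other SC HT arrays. Its thalamus marker mean was 10.54 against 11.33 to 11.71 in those arrays, and Prkcd was 11.62 against 13.51 to 13.70. The thalamus marker Calb2 went the other way, at 11.02 against 10.30 to 11.01. In CM HT the array of O56 had the highest Agrp, Pomc, Ghrh, Gal, Trh and Oxt, with Agrp at 8.97, and that of O58 had the lowest Hcrt, Ghrh, Gal and Trh, with Hcrt at 13.05. Avp was highest in O54, Oxt and Avp were lowest in O52, and Crh was highest in O58. The part of the dissection in the peptide levels was not tested.

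**Figure D5:**
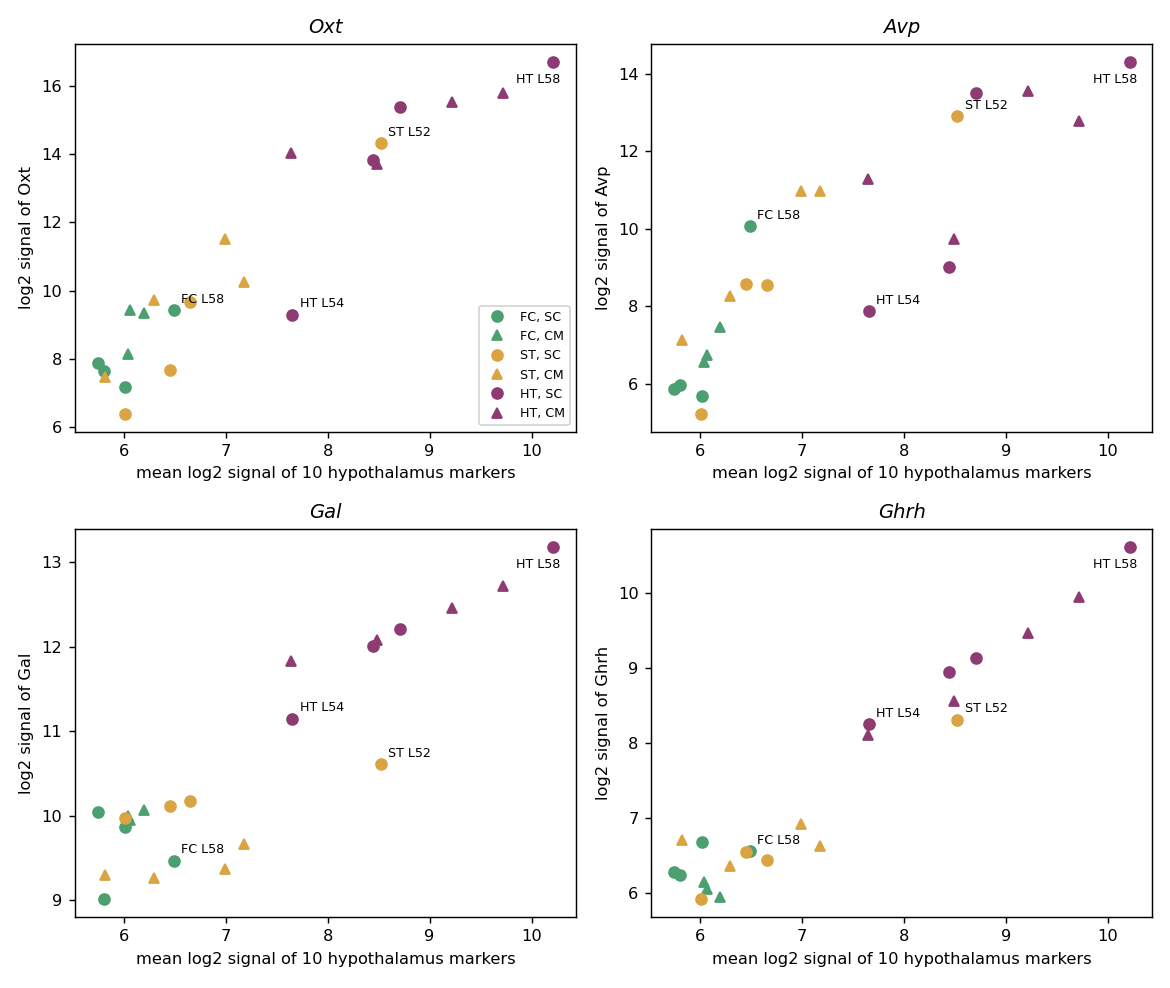
Log2 signal of Oxt, Avp, Gal and Ghrh on 23 arrays (y axis) against the mean log2 signal of 10 hypothalamus markers (x axis), by region (color) and diet (shape). In HT Ghrh and Gal climb with the marker mean from 7.64 to 10.22; the SC ST array of L52, at 8.52, lies among the HT arrays for Oxt, Avp and Ghrh and below all of them for Gal.

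Among the other genes of the table, those whose deviations from the diet means most resembled each peptide over the 8 HT arrays were Xbp1 and Gfra2 for Oxt (r = 0.996 and 0.993), Rab2a and Hif1a for Avp (0.995 and 0.990), Pgr15l and Polr3d for Trh (0.987 and 0.985) and Arhgef6 and Eif3g for Crh (0.994 and 0.983). For Ghrh they were Zfp92 and Rps3a (both 0.994), for Gal Irs4 and Proca1 (0.997 and 0.996), for Tac2 Cryaa and Acpl2 (0.974 and 0.949) and for Gnrh1 Klhdc3 and Dusp7 (0.984 and 0.978). Each is the top of 15904 genes compared over 8 arrays, and is given as a description. Pgr15l, an orphan receptor gene, and Irs4, an adaptor of insulin signaling, had SDs of 0.72 and 0.58 over these arrays, and Xbp1 and Eif3g 0.11 and 0.07.

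The receptors of the 8 peptides and the other lists below were compared between HT and FC on SC, where 4.38% of all rows were higher and 4% lower in HT. Of 14 receptor genes 11 were in the table, and on SC 4 were higher in HT than in FC and 1 lower, with a list median of 0.82. Tacr3, the neurokinin B receptor, was 2.39 ± 0.41 higher (adjusted p = 0.000113), Galr1, a galanin receptor, 2.36 ± 0.33 (adjusted p = 1.65e-05), and Avpr1a and Trhr 1.82 and 1.34. Crhr1, the main receptor for Crh, was lower in HT, by -1.39 ± 0.19 (adjusted p = 1.35e-05), with 8.63 to 9.04 in SC HT against 10.11 to 10.58 in SC FC. Oxtr, the oxytocin receptor, was at -0.45 ± 0.26 (adjusted p = 0.179). Against ST on SC 2 of the 11 passed, Avpr1a and Trhr, both higher in HT, where 1.95% of all rows were higher. On CM 3 of the 11 were higher in HT than in ST, where 4.37% of all rows were. None of the 11 differed by diet in HT, where 0.178% of all rows did.

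Of 23 other peptides of the hypothalamus measured, 6 were higher and 4 lower in HT than in FC on SC, and 13 did not pass. Pmch and Hcrt, the peptides of the lateral hypothalamus, rose by 8.15 ± 1.32 (adjusted p = 6.70e-05) and 7.59 ± 1.33 (adjusted p = 0.000144), whereas Vip and Npy, which cortical interneurons also make, were lower by -3.34 ± 0.60 (adjusted p = 0.000174) and -2.92 ± 0.28 (adjusted p = 2.16e-07). Of 18 transcription factors of neuroendocrine neurons 4 were higher and 0 lower, led by Hmx3 at 3.02 ± 0.64 (adjusted p = 0.000791). Fezf1 was at 2.40 ± 0.79 (adjusted p = 0.0186), and Pou3f2 and Arnt2 were at -0.73 and -0.54. Among 14 genes of peptide processing and secretion 1 passed, where 4.38% of all rows were higher and 4% lower in HT. It was the granin Scg2, at 1.10 ± 0.22 (adjusted p = 0.000528). Qpct was at 0.86, and Pcsk2, which cleaves peptide precursors, and Cadps2 at -0.76 and -0.83. Of 11 steroid and metabolic hormone receptors, the prolactin receptor Prlr was higher by 3.12 ± 0.64 (adjusted p = 0.000669) and the thyroid hormone receptor Thrb lower by -1.29 ± 0.17 (adjusted p = 8.75e-06), while Lepr and Thra were at 0.70 and -0.72. In none of these lists did a gene pass the diet threshold in HT, where 0.178% of all rows did.

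Markers of other tissue were read beside these results. All 7 measured cortex markers were lower in HT than in FC on SC, led by Neurod6 and Emx1 at -4.80 and -4.09, with Nrgn and Slc17a7 at -3.42 and -3.56. Of 8 striatum markers 1 was lower, Ppp1r1b at -2.15, whereas Drd1a, Gpr6 and Drd2 were at -2.04, -0.81 and -0.15. Among thalamus markers Gbx2 and Prkcd were 5.07 and 4.94 higher, Rora 1.35 higher and Cdh9 lower at -1.79. In the hypothalamus list Pmch, Hcrt and Nkx2-1 passed, while Nr5a1 and Pomc were at 0.65 and 0.48. Only 5 of 10 pituitary markers were in the table; Lhb was higher at 1.85, and Pou1f1 and Gh were at 0.23 and -0.01. Of 7 choroid plexus markers Otx2 was higher at 3.44, with Clic6, Kl and Aqp1 at 1.83, 0.31 and -0.21. Of 6 tanycyte and ependyma markers Foxj1 was higher at 1.33 and Crym lower at -3.34, with Tmem212 and Col23a1 at 1.10 and -1.05. No red blood cell marker of 5 passed; Hbb-b2, Hbb-b1, Hba-a2 and Alas2 were at 0.62, 0.19, -0.06 and -0.17.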

How the data were processed

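Total RNA was measured on 23 one-color Agilent mouse arrays. Per probe, the deposited scanner files give the spot intensity and its local background. The authors also deposited a table of log2 expression, made in limma by normexp background correction of the median intensity, quantile normalization, removal of probes not above 1.1 times the 95 percentile of the negative controls on at least 4 arrays, and averaging by transcript. These steps were repeated from the deposited intensities in R 4.3.3 with limma 3.58.1. The values matched the deposited log2 table (largest difference 5e-09). The image software was Feature Extraction 10.7.3.1.

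The model held 6 group means, array weights and mouse as a random block (correlation -0.0398 within a mouse), and called diet differences in HT at 1.5-fold and adjusted p 0.05, other groups at 2-fold and 0.01, and differences of diet differences at adjusted p 0.05 without a fold. Replicates are separate mice. The pairing of regions comes from the mouse in the titles; deviations of regions of a mouse had a median correlation of 0.02 over 22 pairs. Numbers are only shared between diets. Some probes were not well above background on any array of a group. Their values were raised, if lower, to the array's lowest signal well above background. Spots well above background numbered 36432 to 42261 per array. The fit was tested on simulated data: of 100 rows changed by 1 (log2) between CM and SC in HT 77 were recovered, and of 100 changed by 2, 100. Of the unchanged rows 5 were called. The changed rows were drawn at random, with independent noise and without slide effects. Oxt and Avp spread far more than most rows, with SEs of 1.12 and 1.25 for diet in HT. The recovered shares therefore do not carry over to them. Correlations used exact permutation of all orders, two-sided, in Python. The 8 genes, the gene lists and the rules were chosen with earlier results of these data known. Beside the 8 genes, the text names for each list the 2 largest and 2 smallest differences between HT and FC on SC and any gene called by diet in HT, and for each peptide the 2 genes of highest r. One result that this rule selects is not reported here. Other genes named (Avpr1a, Trhr, Nkx2-1, Dlx1, Dlx2, Agrp, Kiss1, Calb2) were picked after their values were seen. For a gene with several rows the brightest stood for it. The alternatives were slide and mouse blocks, array weights, signal, background, normalization, filter, averaging, and each array and mouse left out. In addition, 2 pairs of SC arrays, picked after their values were seen, were left out.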

Additional observations from a re-analysis of the deposited data

Results flagged for a closer look

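Avp in the SC FC array of mouse L58, at 10.07, lay far above the other 3 SC FC arrays, at 5.69 to 5.98. It was the only 1 of 45 groups of 4 arrays in which an array lay this far from the rest by Dixon's test, and chance alone flags about 1 group in 20. The diet difference of the Gnrh1 start-codon probe was not alike in HT and FC, the log2 value in HT minus that in FC being -1.17 (adjusted p = 0.00301 in limma), on a probe that was not well above background in 2 of 4 SC FC arrays.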

How the results depend on the processing

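In limma, diet calls among the 9 rows stayed at 0 in HT and ST under all alternatives run, and in FC except for 1 with the processed signal scaled to its 75th percentile. With slide as a fixed block the rows called fell from 5 to 3 for HT against FC on SC (5.10% of all rows called), from 7 to 0 on CM (5.33%), from 4 to 2 for HT against ST on SC (4.46%), from 2 to 0 for ST against FC on CM (0%) and from 1 to 0 for the diet difference between HT and FC. With the block and no array weights the counts were 0 for HT against FC on CM, 7 for HT against ST on SC, 0 for ST against FC on CM and 0 for the diet difference between HT and FC; without array weights alone they were 3 for HT against ST on CM, 1 for ST against FC on CM and 0 for the diet difference. Slide as a random block left 1 for ST against FC on CM and 0 for the diet difference. Trh between ST and FC on CM turned from 2.13 to -0.49 with the slide block and to -0.73 without array weights as well, and the Gnrh1 start-codon probe, HT minus FC, from -1.17 to 0.26 and 0.33. These 2 are the only reversed differences of called rows; the cause was not tested. The count for ST against FC on SC was 0 with only ST and FC arrays. With each mouse as a fixed effect, the replicate block, it was 0 as well, and the counts for HT on SC were 6 against FC and 5 against ST; the mouse number as a block changed no count. Without the SC FC arrays of L54 and L58, an alternative chosen after seeing the data, 3 rows were called for HT against FC on SC, 0 for ST against FC on SC and 0 for the diet difference.

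Leaving out 1 array or mouse gave 3 to 6 rows for HT against FC on SC (3 without mouse L56), 6 to 7 on CM, 2 to 7 for HT against ST on SC (2 without L58, 7 without L54), 3 to 6 on CM (3 without O54), 0 to 1 for ST against FC on SC (0 without L52, L56 or L58), 1 to 3 on CM (1 without O54 or O56), and 1 to 2 for the diet difference between HT and FC (2 without the SC HT array of L58). Correlated pairs went from 7 to 0 without the 2 arrays farthest from the median, 4 with slide effects subtracted, and 3 to 12 with 1 array left out.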
